A study of Mus musculus with 6 samples.

Results

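The origin firing factors are the proteins that turn a licensed replication origin into a pair of moving forks, and the chromatin peaks listed at their genes in cells with induced E2F1 were examined here. The 10 genes were the GINS subunits Gins1, Gins2, Gins3 and Gins4, the helicase co-factor Cdc45, the kinase subunits Cdc7 and Dbf4, and the loading factors Ticrr, Recql4 and Topbp1. They were taken by name from 21887 protein-coding genes of the RefSeq table, with earlier results of these data known. A peak was assigned to a gene when any base of the peak lay inside the gene or within 1000 bp of it. The peaks came from chromatin immunoprecipitation with sequencing (ChIP-seq), which finds where a protein sits on DNA, in the mouse embryonic fibroblast line NIH/3T3. One group carried a stably integrated doxycycline-inducible E2F1 construct, E2F1 being a transcription factor that activates genes of the G1/S transition, and the other an inducible empty vector (EV), with 2 libraries of each and 1 peak list per library. Every library, EV included, came from cells kept in 0.25% serum for 48 hours to bring them to a resting state and then given doxycycline for 12 hours, so the construct is the labelled difference. The labels do not name the protein that was precipitated, and an E2F1 list here means a list from cells with the E2F1 construct. The treatment protocol gives 500 ng/ml doxycycline, whereas the names of the lists carry a value of 200 with no unit, and which dose applied to these libraries is not settled here. The labels give no clone structure and no separate cultures for the replicates, so differences between replicates may be technical. Input DNA of the EV cells, 2 samples, was not used here.

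At each origin, the loaded but inactive MCM double hexamer becomes an active helicase only when Cdc45 and the GINS complex join it, which forms the CMG helicase. The Dbf4-dependent kinase (DDK), made of the catalytic subunit Cdc7 and its activator Dbf4, phosphorylates MCM, and cyclin-dependent kinase drives Ticrr (also called Treslin) onto Topbp1, which brings in Cdc45 and GINS. Recql4, a helicase of the RecQ family, acts in the same step. Resting cells hold little of several of these proteins, and E2F factors are known regulators of S-phase genes.

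The E2F1 lists held 7836 peaks (replicate 1) and 8027 (replicate 2), against 70 and 358 in EV replicates 1 and 2. Only sites with a −log10 p above 10 are listed. The genome-wide background of a library, its expected reads at an average position, was used as the measure of depth and was 1.85 and 1.86 reads in the E2F1 libraries and 2.20 and 1.18 in those of EV. Fold enrichment, the authors' ratio of reads at the peak's summit to the local background, was used to rank peaks within a list. The median fold of all peaks was 9.19 in E2F1 replicate 1 and 11.3 in replicate 2.

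All 10 origin firing genes had a peak in both E2F1 lists, and none had one in either EV list. Each gene had exactly 1 peak in each E2F1 list, at 1 end of the gene. Under the same window, 36.9% of protein-coding genes had a peak in E2F1 replicate 1, 38.2% in replicate 2 and 34.4% in both, and the share was 0.0366% for the first EV list and 0.407% for the second. The mean number of origin firing genes with a peak was 10 in E2F1 (SD 0, n = 2) and 0 in EV (SD 0, n = 2). The groups did not overlap (p = 0.333, exact permutation of the libraries, two-sided). With 2 libraries a group no lower p is possible, so this design cannot pass 0.05. The EV peak nearest to any of the genes lay 268759 bp from Gins1, in EV replicate 2.

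An absent EV peak marks only a site below the limit of its list. At the genome-wide background, a site needed 17 reads at its summit, a fold of 5.63, to be listed in EV replicate 1, and 13 reads, a fold of 6.43, in EV replicate 2. The lower of the E2F1 folds was above the first limit at 10 genes and above the second at 8, the exceptions being Cdc45 and Recql4. Cdc45 was below the second limit in E2F1 replicate 1 only, and Recql4 in both E2F1 lists. A site with such a fold was not certain to be listed in EV replicate 2, if its background was the genome-wide one. Over a higher local background a lower fold is enough, and the median fold in that EV list was 4.88. In E2F1 replicate 1 the local background was 2.29 times the genome-wide one at Cdc45 and 3.55 times at Recql4. The EV background at these genes is not known, as no peak was listed there.

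**Figure D1:**
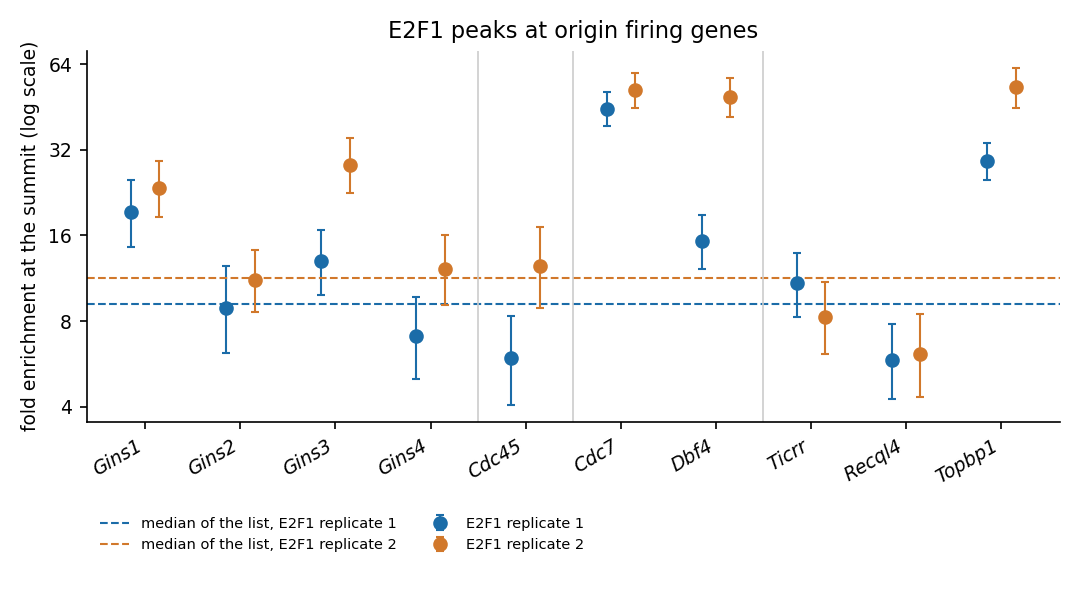
Fold enrichment (log axis) of the peak at each origin firing gene in the 2 E2F1 lists. Points are the deposited folds, bars are 95% counting intervals from the solved summit reads, dashed lines are the medians of all peaks of each list (9.19 and 11.3), and grey lines separate the roles. Cdc7, Topbp1, Dbf4, Gins1 and Gins3 lie above both medians in both lists and Recql4 below them.

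The kinase genes had strong peaks. Cdc7 (chromosome 5, 106964315 to 106984440) had the highest mean fold of the 10 genes, with 44.7 in E2F1 replicate 1 and 52.0 in replicate 2 (48.3 ± 5.15, SD, n = 2). These ranked 49 of 7836 and 172 of 8027. At Dbf4 (chromosome 5, 8396969 to 8422725) the fold was 15.3 in replicate 1 and 49.0 in replicate 2, with ranks of 1678 and 208. Cdc7 was thus near the top of both lists, whereas Dbf4 was near the top of the second only, and the spread at Dbf4 (SD 23.8 around a mean of 32.1) was the widest of the 10. The Dbf4 peak is shared: the span of the neighbouring gene Slc25a40, a mitochondrial carrier, lies 5 bp beyond that of Dbf4, and the summits lay 15 and 19 bp from its boundary, so the peak cannot be assigned to 1 gene of the pair. The promoter windows of both kinase genes, 250 bases before to 50 after the start in RefSeq (GRCm38.p6), are printed because they lie under these strong peaks yet hold none of the 8-letter E2F strings described further on. RefSeq lists 2 starts for Cdc7, and the window of the downstream start is shown (chr5:106964311-106964610, plus strand), followed by that of Dbf4 (chr5:8422667-8422966, minus strand). Capitals mark bases covered by an E2F string of 6 or 7 letters.
Cdc7: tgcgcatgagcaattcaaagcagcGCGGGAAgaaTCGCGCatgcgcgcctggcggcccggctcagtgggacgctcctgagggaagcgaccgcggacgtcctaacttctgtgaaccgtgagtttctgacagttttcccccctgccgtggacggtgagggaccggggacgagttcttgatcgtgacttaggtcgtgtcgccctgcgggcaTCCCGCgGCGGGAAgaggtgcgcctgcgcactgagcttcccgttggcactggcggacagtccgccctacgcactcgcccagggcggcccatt
Dbf4: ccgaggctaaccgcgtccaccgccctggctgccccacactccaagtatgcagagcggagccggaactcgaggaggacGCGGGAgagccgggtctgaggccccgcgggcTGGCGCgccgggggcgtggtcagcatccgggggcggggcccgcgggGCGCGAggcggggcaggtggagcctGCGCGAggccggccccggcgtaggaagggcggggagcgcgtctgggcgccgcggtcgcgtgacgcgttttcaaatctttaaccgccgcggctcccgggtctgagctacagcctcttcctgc

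The GINS genes spanned the middle to the upper part of the lists. Their products form a single complex that binds MCM together with Cdc45. The Gins1 peak (gene on chromosome 2, 150909556 to 150931280) had folds of 19.3 and 23.5, ranks 975 and 1380. For Gins3 (chromosome 8, 95633559 to 95645059) they were 13.0 and 28.3, ranks 2265 and 942. Gins1 and Gins3 were above the list median in both lists. Gins2 (chromosome 8, 120581266 to 120589075) had folds of 8.92 and 11.2, just below the median of each list. Gins4 (chromosome 8, 23226610 to 23237668) had 7.06 in replicate 1, below the median, and 12.2 in replicate 2, above it. The 4 genes of this complex had mean folds from 9.63 at Gins4 to 21.4 at Gins1. Non-coding RNA genes, Gm10614 and Gm39141, lie 102 bp from Gins2 and 112 bp from Gins4 and have the same peaks within their window. The Gins3 window (chr8:95633309-95633608, plus strand) is shown as 1 of the 2 windows with an 8-letter E2F string, which the first run of capitals marks; the second run is a string of 6 letters.
Gins3: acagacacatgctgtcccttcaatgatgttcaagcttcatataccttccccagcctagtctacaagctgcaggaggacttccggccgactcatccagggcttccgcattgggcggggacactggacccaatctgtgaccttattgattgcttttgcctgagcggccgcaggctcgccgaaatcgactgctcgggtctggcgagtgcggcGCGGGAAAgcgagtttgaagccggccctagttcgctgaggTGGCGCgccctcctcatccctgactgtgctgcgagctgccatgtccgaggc

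Cdc45, the subunit that completes the helicase with GINS, had a weak and variable peak. Its fold was 5.91 in replicate 1, rank 6447, and 12.5 in replicate 2, rank 3599. The first is below and the second above the median of its list. Cdc45 (chromosome 16, 18780447 to 18811972) overlaps Ufd1, a gene of the ubiquitin-dependent segregase complex, by 237 bp at this end, and the peak covered both boundaries. The summits lay 511 and 433 bp inside Cdc45, the farthest of the 10 genes, and 275 and 197 bp from the boundary of Ufd1. The Cdc45 window (chr16:18811923-18812222, minus strand) is shown because, among the genes with a window, it alone had no E2F string of any length searched, hence no capitals. Its G and C content was 38.7%, and both summits lay outside it.
Cdc45: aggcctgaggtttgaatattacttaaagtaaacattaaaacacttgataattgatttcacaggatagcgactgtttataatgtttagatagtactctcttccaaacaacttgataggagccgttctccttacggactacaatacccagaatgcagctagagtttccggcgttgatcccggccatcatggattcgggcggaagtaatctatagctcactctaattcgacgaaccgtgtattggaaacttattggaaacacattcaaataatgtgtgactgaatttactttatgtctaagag

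The loading factors held both a top peak and the weakest one. Topbp1, the scaffold that brings Ticrr, Cdc45 and GINS together and also activates the checkpoint kinase ATR (gene on chromosome 9, 103305167 to 103350428), had folds of 29.3 and 53.2, with ranks 286 and 156. Ticrr (chromosome 7, 79660196 to 79698148) had 10.8 in replicate 1, above the median, and 8.27 in replicate 2, below it. It was the only 1 of the 10 genes with the lower fold in replicate 2. Recql4 (chromosome 15, 76703553 to 76710616) had 5.82 and 6.11, ranks 6531 and 6879, so it was low in both lists and varied little (SD 0.205, n = 2). Its span overlaps that of the leucine-rich repeat gene Lrrc14 by 2 bp, and both summits lay beyond the end of Recql4, inside Lrrc14. The Topbp1 window (chr9:103305077-103305376, plus strand) is printed as the other window with an 8-letter E2F string, which ends the first run of capitals.
Topbp1: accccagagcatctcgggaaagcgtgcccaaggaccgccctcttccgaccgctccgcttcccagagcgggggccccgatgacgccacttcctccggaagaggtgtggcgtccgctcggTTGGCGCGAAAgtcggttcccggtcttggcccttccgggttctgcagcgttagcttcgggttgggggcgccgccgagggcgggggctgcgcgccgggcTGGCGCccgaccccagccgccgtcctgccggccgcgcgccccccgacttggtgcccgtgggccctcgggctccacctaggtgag

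Ordered by mean log2 fold over the replicates, the genes ran from Cdc7 (5.59 ± 0.15, SD, n = 2) through Topbp1 (5.30 ± 0.61), Dbf4 (4.77 ± 1.19), Gins1 (4.41 ± 0.20), Gins3 (4.26 ± 0.80), Gins2 (3.32 ± 0.23), Ticrr (3.24 ± 0.28), Gins4 (3.21 ± 0.56) and Cdc45 (3.10 ± 0.76) to Recql4 (2.58 ± 0.05). Of the 9 steps between neighbours in this order, only that from Gins3 to Gins2, 0.94, exceeded the pooled replicate SD of 0.59. That SD includes the shift of the whole list between replicates. With each list centred on the median of the 10 genes, a spread chosen after seeing the data, the pooled SD was 0.41, and the steps from Topbp1 to Dbf4 and from Cdc45 to Recql4, each 0.53, exceeded it as well. The step from Gins3 to Gins2 was beyond either spread and placed 5 genes on each side. It is the largest step of the order, picked from these same values. In replicate 1 alone the sides were close, with Gins3 at 3.70 and Ticrr, from the lower side, at 3.44. By the means, both kinase genes were above the step and Cdc45 below, and the GINS genes were on both sides. Of the loading factors, Topbp1 was above and Ticrr and Recql4 below.

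Fold was higher in E2F1 replicate 2 at 9 of the 10 genes, with a median ratio of 1.49. Over the 7537 protein-coding genes with a peak in both lists the ratio was 1.26, and 70.9% were higher in replicate 2. The reads behind each fold, solved from the deposited fold and p-value, separated this shift into its parts. Summit reads were higher in replicate 2 at 6 genes and lower at 4, with a median ratio of replicate 2 to replicate 1 of 1.30 at the 10 genes and 1 over all protein-coding genes with a peak in both lists. The local background was lower in replicate 2 at 7. Its median ratio was 0.736 at the 10 genes and 0.753 over all protein-coding genes with a peak in both lists.

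Topbp1 shows the difference most plainly. It had more summit reads in replicate 1 (175, 95% Poisson interval 150 to 203) than in replicate 2 (151, 128 to 177), yet a lower fold, because its local background was 5.01 reads in replicate 1 and 1.86 in replicate 2. At Dbf4 both parts moved: 85 reads (67.9 to 105) over 4.63 in replicate 1, and 158 (134 to 185) over 2.24 in replicate 2. Cdc7 had the most reads in each list, 214 (186 to 245) and 198 (171 to 228). Cdc45 had only 30 (20.2 to 42.8) and 37 (26.1 to 51.0), and Recql4 43 (31.1 to 57.9) and 35 (24.4 to 48.7). By reads, Recql4 was therefore not below Cdc45 in replicate 1, and its low fold there went with the highest local background of the 10, 6.56 reads. Gins2 and Gins4 also had few reads in replicate 1, 32 and 36, against 62 and 49 in replicate 2. With the background taken as fixed, the counting intervals of the folds overlapped between replicates at 6 genes and did not at 4, namely Gins3, Cdc45, Dbf4 and Topbp1. These intervals cover the counting error of the summit reads only. They leave out the error of the background and the shift of the whole list between replicates. The share of all protein-coding genes whose intervals do not overlap is not given here, so the 4 are not shown to be unusual.

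**Figure D2:**
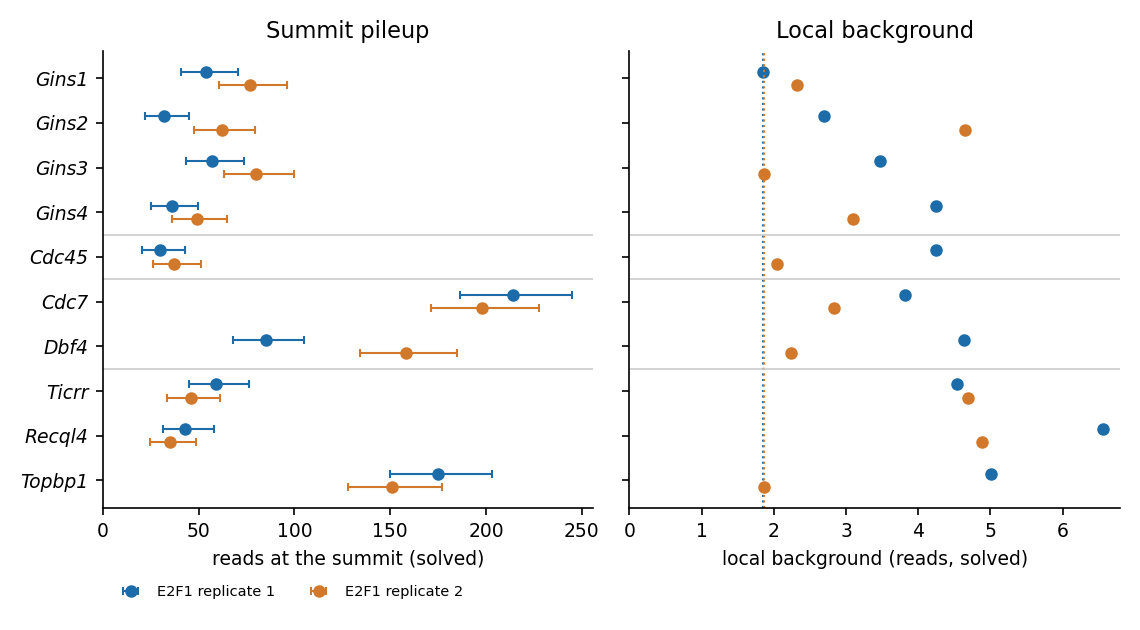
Reads at the summit with 95% Poisson intervals (left) and local background in reads (right) for each origin firing gene in the 2 E2F1 lists, both solved from the deposited fold and p-value; dotted lines are the genome-wide backgrounds (1.85 and 1.86). Topbp1 has more summit reads in replicate 1 but a background of 5.01 there against 1.86 in replicate 2.

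All the peaks sat at a gene boundary. The 20 summits lay between 13 and 511 bp from the nearest boundary of their gene, with a median of 124 bp, and 15 were inside the gene. Over all protein-coding genes with a peak the median distance was 245 bp in replicate 1 and 197 bp in replicate 2. The summit was within 1000 bp of a boundary at 83.9% of these genes in replicate 1 and 84.8% in replicate 2, so this placement was common. The share of all such genes with the summit inside the gene is not given here. Between replicates the summit of a gene moved by 4 bp at Dbf4 to 165 bp at Gins3, with a median of 49 bp, against 58 bp over all protein-coding genes with a peak in both lists. Peak width ran from 382 bp at Gins1 to 1807 bp at Ticrr in replicate 1, and from 467 bp at Gins1 to 1306 bp at Cdc45 in replicate 2. Gins1 thus had the narrowest peak in each list in spite of its above-median fold. The median width of the 10 was 902 bp in replicate 1 and 1012 bp in replicate 2, beside list medians of 938 and 814 bp.

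Just outside the window, the nearest other peak was 4470 bp from Gins1 in replicate 1 and 4476 bp in replicate 2. It was listed in both, at 150904212 to 150905086 and 150904435 to 150905080 on chromosome 2, with folds of 5.82 and 6.16. The next nearest lay 13688 bp from Topbp1. The least enclosed peaks, where a narrower rule could have mattered, were still overlapping their genes: all 10 genes also had a peak in both lists when the window was 0 bp.

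**Figure D3:**
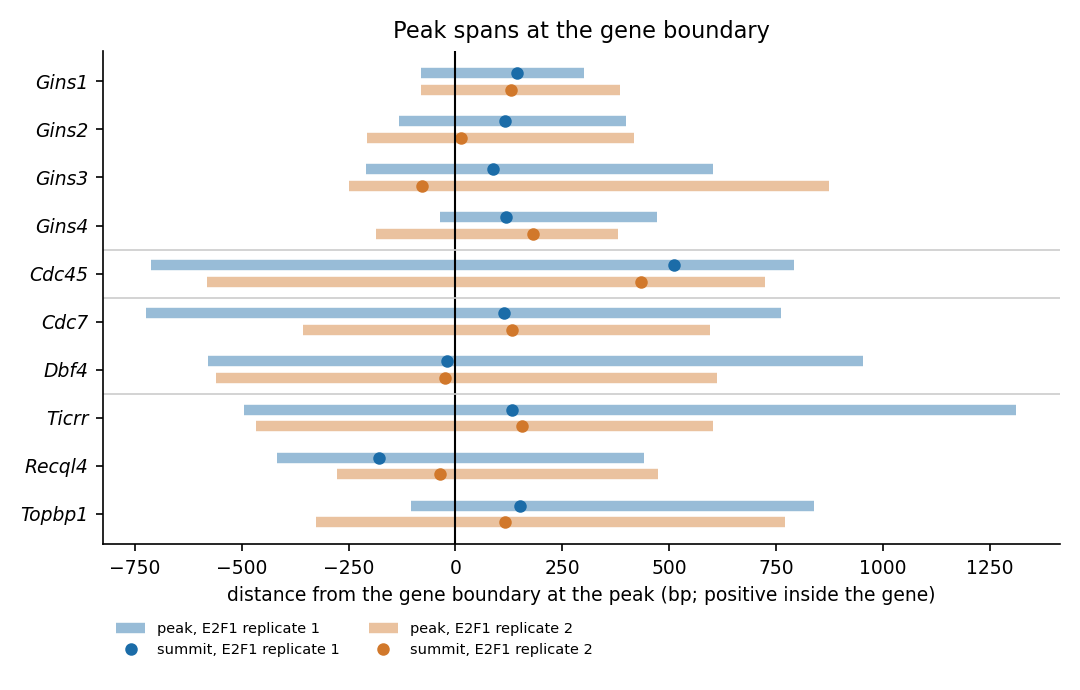
Peak spans (bars) and summits (points) of the 2 E2F1 lists, in bp from the gene boundary at the peak, with positive values inside the gene. Summits lie from 13 to 511 bp from the boundary, with Cdc45 the farthest inside.

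RefSeq starts with promoter sequence were available for 6 of the 10 genes in the table used, Gins3, Cdc45, Cdc7, Dbf4, Ticrr and Topbp1. No sequence was printed for Gins1, Gins2, Gins4 and Recql4. Relative to the nearest start, where the start base is position 0 and positive values are downstream, the summits in replicates 1 and 2 lay at 87 and -78 bp for Gins3, at -29 and -33 bp for Dbf4, at 132 and 156 bp for Ticrr and at -9 and -43 bp for Topbp1. At Cdc7 they fell between its starts, 107 bp after the upstream one in replicate 1 and at -113 bp from the downstream one in replicate 2. Except at Cdc45, every summit of these 6 genes was thus within 156 bp of a start.

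E2F factors are known to prefer sites with a run of Ts followed by a core of C and G. The windows were searched on both strands for the strings TTTCCCGC, TTTCGCGC, TTTGCCGC and TTTGGCGC. Of the 6 genes, 2 held such a string. In Gins3 it was GCGGGAAA at positions -41 to -34, and in Topbp1 GCGCGAAA at -129 to -122, overlapped by TTGGCGC at -132 to -126. Both lay inside the peaks of both lists. The summit lay 124.5 bp after the centre of the Gins3 string in replicate 1 and at -40.5 bp, before it, in replicate 2. The Topbp1 summits lay 116.5 and 82.5 bp after the centre of its string. Without the leading T (7 letters), 3 genes held a string, Cdc7 being added with GCGGGAA at positions 13 to 19 of the upstream start and -35 to -29 of the downstream start. Without the leading pair of Ts (6 letters) 5 did, all but Cdc45.

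Of all 32851 promoter windows, 2.26% held an 8-letter string, 9.57% a 7-letter and 36.3% a 6-letter one. Among the windows of protein-coding genes alone, the shares were 2.85%, 12.1% and 45.0%. Among the 8010 windows of protein-coding genes with a peak in both E2F1 lists the shares were 5.02%, 20.1% and 67.7%. Whether the peak of each gene overlapped its window was not part of these shares. The windows of genes with a peak were also richer in G and C. Their median was 63.3%, against 56.3% in those of all protein-coding genes and 52.7% in all windows. The part of base composition in these shares was not tested. Of the 6 genes, Topbp1 and Gins3, which held an 8-letter string, had mean log2 folds of 5.30 and 4.26. Among the 4 without one, Cdc7 (5.59) was above both, Dbf4 (4.77) was between them, and Ticrr (3.24) and Cdc45 (3.10) were below both. A match describes these letters in this window and is not a measured binding site.

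Other promoter strings of cell cycle genes were counted on both strands as well. CCAAT, the box bound by NF-Y, was in the windows of Gins3, Cdc45 and Ticrr, 3 of 6 genes and 3 of 7 windows, with 4 copies in Ticrr. The share was 37.4% of all windows and 36.8% of those of protein-coding genes with a peak in both E2F1 lists. TTTGAA, the core of the cell cycle homology region (CHR) used by G2/M genes, was in the windows of Gins3, Cdc45, Cdc7 and Dbf4. These were 4 of 6 genes and 5 of 7 windows, both windows of Cdc7 holding the same copy. The string was in 17.9% of all windows and 11.4% of those of protein-coding genes with a peak in both E2F1 lists. In Gins3 it lay at positions -28 to -23, close to the E2F string. With 6 genes, these counts are descriptions only.

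**Figure D4:**
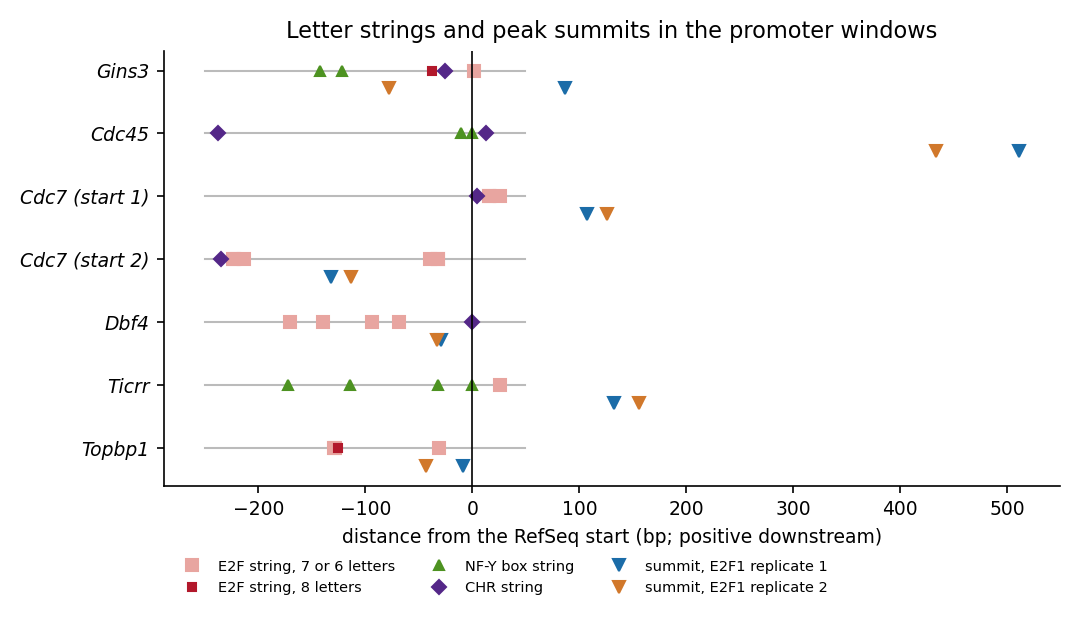
Positions of the letter strings (squares, triangles and diamonds on the grey line) and of the peak summits (inverted triangles) around the RefSeq starts of the 6 genes with promoter sequence, in bp, positive downstream; the grey line is the window searched. Only Gins3 and Topbp1 hold an 8-letter E2F string, and the Cdc45 summits lie at 511 and 433 bp, outside its window.

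The other genes of replication initiation were described from a list of 35. Of these, 32 had a peak in both E2F1 lists, beside 34.4% of protein-coding genes, and 0 had one in either EV list. All 15 firing partners and replisome entry factors had a peak in both lists, and so did the 4 S-phase kinase genes and Rif1, which restrains firing by recruiting a phosphatase against DDK. Of the 15 recognition and licensing genes 12 did. The exceptions were all subunits of the origin recognition complex: Orc1 had a peak in replicate 1 alone (fold 5.87), Orc3 in replicate 2 alone (7.52) and Orc4 in neither.

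Within the lists, the median percentile by fold, meaning the percent of the list's peaks with a lower fold, was 65.9 in replicate 1 and 69.0 in replicate 2 for the origin firing genes. For the other initiation genes it was 90.9 and 87.2, and for all protein-coding genes with a peak 54.0 and 53.2. The median fold of the origin firing genes was 11.9 and 18.0. That of the other initiation genes was 21.8 and 27.3, and that of all protein-coding genes with a peak 9.73 and 12.0. In replicate 1, 6 of 10 origin firing genes lay above the list median, and 7 of 10 in replicate 2. The share was 28 of 33 and 30 of 33 for the other initiation genes, and 54.3% and 53.2% for all protein-coding genes with a peak. These are descriptions without a test. The genes were chosen by name with earlier results of these data known, and each group shares its libraries. The highest of the other genes were Ccne1, the cyclin that activates Cdk2 (65.0 and 131.6), Ccne2, its close relative (45.3 and 64.5), and Pole4, a histone-fold subunit of polymerase epsilon (41.1 and 51.0). The lowest with a peak in both lists were Orc2 (9.57 and 8.35), Mcm5 (7.06 and 11.5) and Pole3 (6.79 and 13.2). Cdc7 was above Pole4 in both lists, Topbp1 was above it in replicate 2 and below it in replicate 1 (29.3), and Recql4 was below the lowest of them in both lists.

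**Figure D5:**
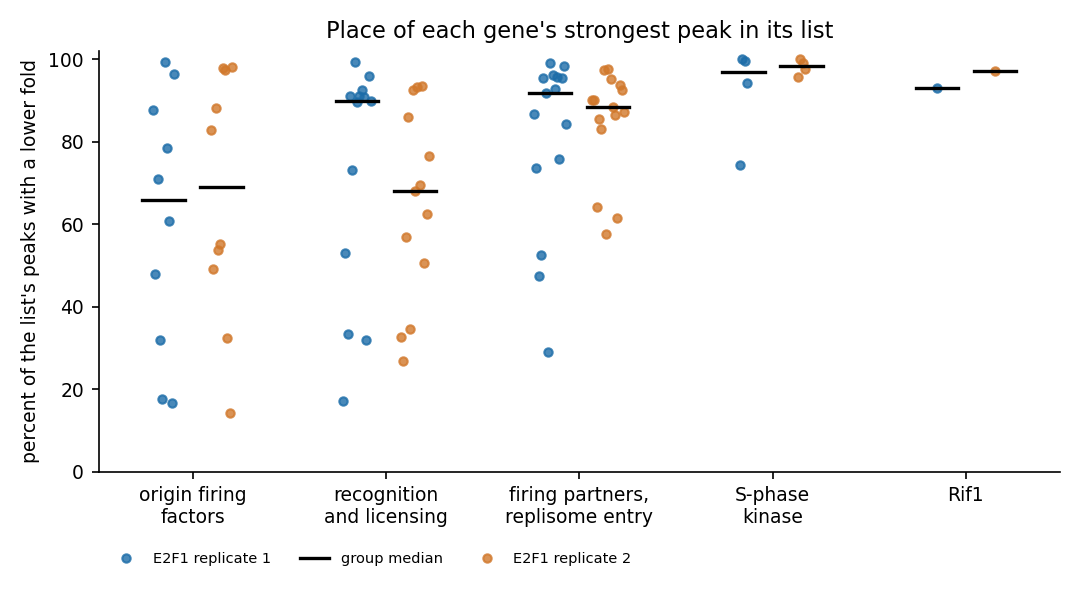
Percent of the list's peaks with a lower fold than the strongest peak of each gene, for the origin firing factors and the other initiation genes by role, with genes that have a peak in that list as points and the group median as a bar. The 10 origin firing genes range from 16.6 to 99.4 in replicate 1 and from 14.3 to 98.0 in replicate 2.

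The pair of folds at Cdc7 was most closely matched by that of Anapc5, a subunit of the anaphase-promoting complex, with 44.2 and 50.9. Next were Zfp521 (44.2 and 53.9) and Banp (45.3 and 53.9), a zinc finger and a DNA-binding protein gene. Likeness was the distance between log2 folds over 2 libraries among 7495 protein-coding genes outside both gene lists, and was 0.033, 0.055 and 0.058 for the 3 genes. With only 2 values per gene, it shows similar peak strength and nothing more.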

How the data were processed

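ChIP-seq peaks were analysed for 2 E2F1 and 2 EV libraries; sample titles gave the groups and replicates. Per the submitters' processing notes, the tools were FastQC, Trimmomatic, Bowtie2, MACS2 and ChIPseeker and the build mm10; the antibody, the control of each list and the settings are not given in the sources used here. Each deposited list has 10 columns in narrowPeak layout. The authors' score is 10 times the deposited −log10 q-value, rounded down. Fold enrichment, as deposited, is the ratio of summit to background, and the deposited −log10 p-value starts just above 10 in each list, so weaker sites are missing. Peaks were taken as called per library.

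Genes came from the RefSeq table of GRCm38.p6, whose coordinates are those of mm10; a peak counted within 1000 bp of the span, and the peak with the highest fold stood for a gene. Coordinates count from 1. Summit reads and local background were solved from fold (pseudocount 1) and Poisson p-value; a whole number within 5% of a step was found for all 20 member peaks and for 95.7% to 99.99% of the peaks of each list. The solver was tested on simulated data. The lowest solved background of a list stood for its genome-wide background, and total read depth is unknown. Intervals are exact Poisson at 95%. Gene counts per library were compared by exact permutation, two-sided. Promoter windows of 300 bases came from RefSeq, matched by gene identifier.

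The genes named are all members, the 3 highest and 3 lowest other initiation genes with those lacking a peak in both lists, and the 3 genes most like the top member. Members and gene lists were chosen with earlier results of these data known. Alternatives were other windows, the summit in place of the peak, starts alone, stronger peaks, nearest gene, overlap rules, other ranks and leaving out each library. Python 3.11.15, numpy 2.4.6, scipy 1.17.1 and pandas 2.3.3 were used.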

Additional observations from a re-analysis of the deposited data

How the results depend on the processing

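Of 79 alternatives computed over 22 results, 1 of them added after seeing the data, 72 were classed as the same. Some of these could not differ: each gene had 1 peak per E2F1 list, so the strongest by score was that peak. Leaving out a library could not change counts that were equal within each group. The class was also wide at single genes. At Dbf4 the mean log2 fold of 4.77 became 5.61 without replicate 1 and 3.93 without replicate 2. The difference of 10 origin firing genes between E2F1 and EV was also 10 with the replicate block (exact sign-flip p = 0.5, the smallest that 2 pairs can give) and without each library in turn. With 1 count per library, pairing by replicate number could not be checked. Under stricter rules the difference fell but was still classed as the same. It was 8 when the summit had to lie nearest to the member and 6.5 with peaks at or above the median score. Within 1000 bp of a start in the promoter table it was 6. The number with a peak in both E2F1 lists went from 10 to 5 with peaks at or above the median score of each list, which removed Gins2, Gins4, Cdc45, Ticrr and Recql4 from at least 1 list, and to 6 within 1000 bp of a start in the promoter table, where only 6 of the genes have one. It was 8 when the summit had to lie nearest to the member, which removed Dbf4 and Recql4. The share of all protein-coding genes under these stricter rules is not given here, so these counts have no like share beside them. The 34.4% was taken with all peaks. Ranked by summit reads, the median percentile of the 10 genes was 59.4 in replicate 1, in place of 65.9, and 71.3 in replicate 2, in place of 69.0. Genes with an E2F string rose from 2 to 5 of 6 with 6 letters, since shorter strings match more often. The background share fell from 34.4% to 18.0% over all genes of the table, which include non-coding genes. With each list centred, 3 steps in the order of the genes exceeded the replicate spread in place of 1. Few reads lay under the weak sites: 30 to 43 under the summits of Cdc45 and Recql4, and in replicate 1 also 32 at Gins2 and 36 at Gins4. The genome-wide background, used here in place of the unknown read depth, was lowest in EV replicate 2.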
